A study of Mus musculus with 6 samples.

Results

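The collagen and basement membrane genes examined here are 33 named extracellular matrix genes, all found by name among the 21995 rows of an RNA-seq table from the Lhx4 null and control mouse retina at postnatal day 6 (P6). The rule that chose them uses gene names alone, and they were kept in separate sets: 19 genes of basement membranes, which line blood vessels and form the inner limiting membrane, 12 genes of fibrous matrix that are typical of mesenchyme, and 2 collagens of vitreous and cartilage. Values were FPKM as deposited, which are fragments scaled to gene length and library size, so levels can be set side by side between genes.

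The libraries came from 3 Lhx4 null and 3 control mice, with the retinas of 1 mouse per library and the pigment epithelium removed at dissection. Pigment epithelium and melanocyte markers still summed to 10.8, 11.2 and 31.1 FPKM in Lhx4 null libraries, against 9.87, 22.2 and 27.3 FPKM in control libraries. Their sum was highest in replicate 3 of each genotype, and the part of these cells in the matrix levels was not tested. All mice were of mixed strain (C57BL/6J and 129S6). The study asked how the developing retina differs without LHX4, a homeodomain factor that bipolar cells use. Null animals carried a tdTomato knock-in allele of Lhx4 and a loxP allele that Six3-Cre deletes in the retina, whereas the RNA-seq controls are labelled only as control, so whether they carried Cre or a loxP allele is not given in the sources used here. Six3-Cre acts in the retinal lineage, so vessel cells and other cells that enter the retina would keep the loxP allele. Animals of both sexes were used. In bulk retina, fewer cells of a type and less RNA per cell cannot be told apart.

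Lhx4 itself stood at 28.2, 28.3 and 25.8 FPKM in the Lhx4 null libraries, against 18.0, 18.1 and 19.3 FPKM in the control libraries, and a gene-level value does not separate transcripts with and without the deleted part, so it does not check the genotype. Markers of rods, bipolar cells and amacrine cells were present in every library. The libraries numbered 3 of both genotypes stood apart from the rest, with all 6 rod markers lower and all 7 cell cycle markers higher than in the other libraries of their genotype. Of 7 bipolar markers 6 were also lower there. Grm6 had 0.0953 FPKM in control replicate 3, against 33.6 and 11.6 FPKM in control replicates 1 and 2. Genotype differences without both libraries numbered 3 are given below for the members apart in them and for those that moved most.

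Basement membranes are thin sheets in which laminin trimers, each with an alpha, a beta and a gamma chain, and a network of type IV collagen are linked by nidogens and the heparan sulfate proteoglycans perlecan and agrin. In the eye they surround the retinal capillaries, which spread over the inner surface during the first postnatal week in mice, and they form the inner limiting membrane between Müller glial endfeet and the vitreous. Fibrillar collagens are instead made mainly by fibroblasts and other mesenchymal cells of the sclera, cornea and vessel walls. Collagen types II and IX are the collagens of vitreous and cartilage, and cells of the developing eye secrete them into the vitreous.

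Several members are genomic neighbours. Col4a1 and Col4a2 lie head to head on chromosome 8, and their RefSeq start sites on opposite strands (11312826 and 11312805, GRCm38.p6) leave 22 bases that both transcripts contain. That stretch is shown because these genes gave the steadiest chain ratio below, at chr8:11312801-11312830 read on the Col4a1 strand, with the 22 shared bases in capitals.
Col4a1: ccccTTGGAGACGCCGCCCGCGCACTgccg
Col4a4 and Col4a3 are also head to head, 72 bases apart on chromosome 1 in GENCODE M21. Col3a1 and Col5a2, Col6a2 and Col6a1, and Dcn and Lum are the other neighbouring pairs, with gaps of 24615, 85162 and 46985 bases.

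Col1a2, the member with the largest difference between genotypes, spans positions 4504814 to 4541544 on the plus strand of chromosome 6 (ENSMUSG00000029661.16). The RefSeq promoter window of Col1a2 is shown from its first base to 30 bases into the transcript, at chr6:4505368-4505647 on the plus strand, with CCAAT in either orientation in capitals. The GENCODE model of the gene starts upstream of this window.
Col1a2: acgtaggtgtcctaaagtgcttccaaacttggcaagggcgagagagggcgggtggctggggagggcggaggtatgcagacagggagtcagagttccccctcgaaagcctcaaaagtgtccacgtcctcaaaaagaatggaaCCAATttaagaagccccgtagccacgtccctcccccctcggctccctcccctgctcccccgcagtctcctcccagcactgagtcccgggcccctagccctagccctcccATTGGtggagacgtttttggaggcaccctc
RefSeq windows of 300 bases were found for 19 of the 33 members, 24 windows in all. CCAAT, searched on both strands, is the box bound by the factor NF-Y, and it occurred in 9 of these 24 windows and in 37.4% of all 32851 windows. GGGCGG, a GC box searched on both strands, occurred in 15 of 24 and in 35.7% of all windows. TAAT, the core that homeodomains prefer, likewise on both strands, occurred in 7 of 24 and in 58% of all windows, and the Col1a2 window held 2 CCAAT, 2 GGGCGG and no TAAT. A match describes letters only and is not a binding site.

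Levels spanned a wide range within the basement membrane and the fibrous sets. In the basement membrane set 5 of 19 genes averaged under 0.5 FPKM and 6 of 19 stayed under 1 FPKM in every library, in the fibrous set 4 of 12 and 6 of 12 did so, and both vitreous collagens were above 10 FPKM in every library. Together the 33 genes summed to between 219 and 282 FPKM per library, which is 0.0532% to 0.0677% of the library total. Agrn took 26.8% to 37.8% of that sum and Col2a1 22.6% to 32.2%, and together with Fn1, Col9a1 and Col6a1 they made up 74.6% to 83.1%. There were 8 members that averaged at least 5 FPKM, 12 of 33 were under 1 FPKM in every library, and 9 had a mean under 0.5 FPKM over the 6 libraries.

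**Figure D1:**
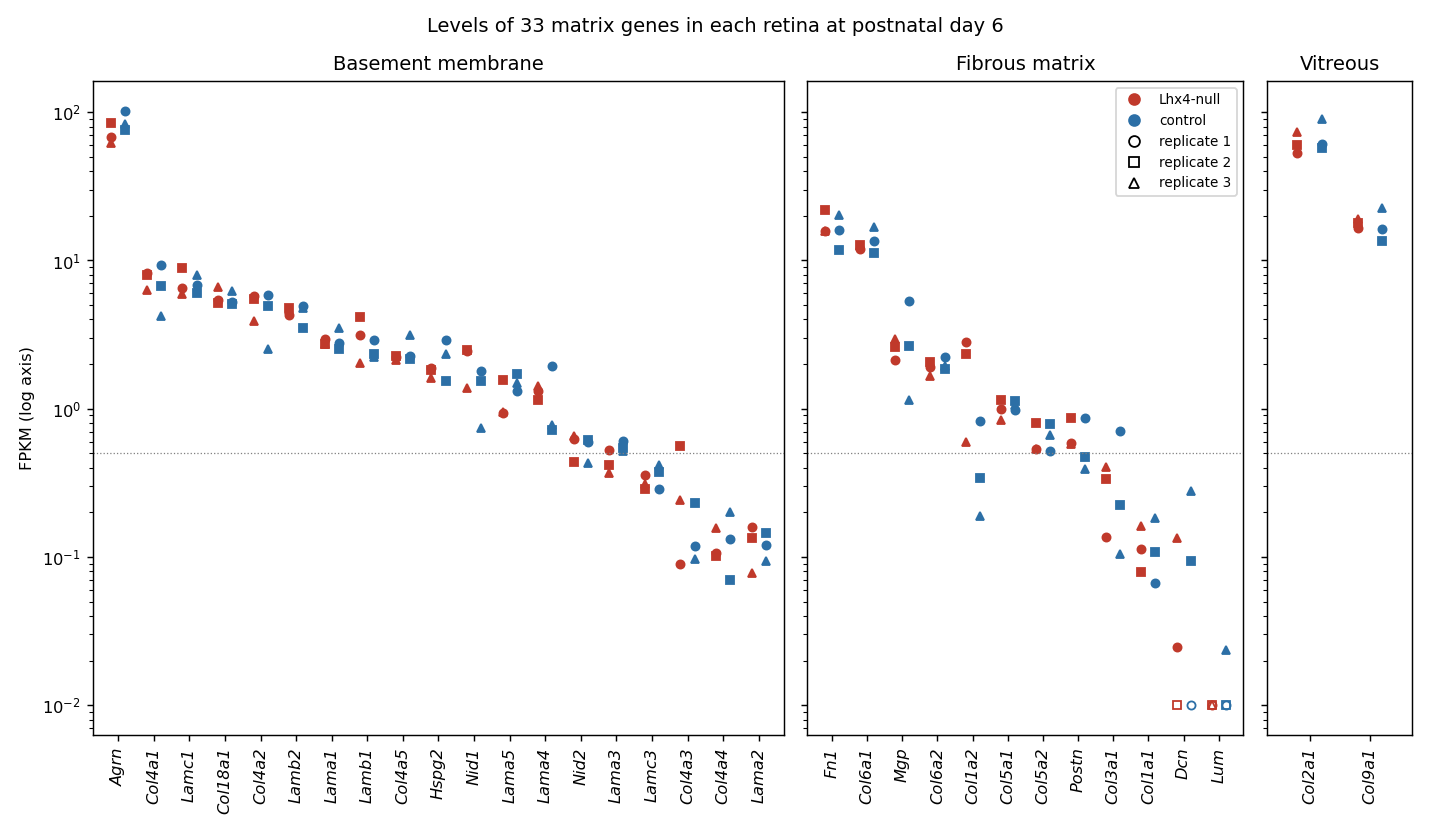
FPKM on a log axis of all 33 genes in each library, grouped by set and ordered by mean. Red points are Lhx4 null libraries, blue points are control libraries, shapes give the replicate number, open symbols at the bottom are libraries listed at 0, and the dotted line is the 0.5 FPKM mean needed for testing. Agrn and Col2a1 lie above 50 FPKM in every library, whereas Col1a1, Col3a1, Dcn and Lum stay under 1 FPKM.

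No member passed the test between genotypes. With limma on log2(FPKM + 0.5), fitted over the 13175 rows that averaged 0.5 FPKM or more, 0 of 24 tested members had a Benjamini-Hochberg adjusted p under 0.05, where 2 of all tested rows (0.0152%) did. With the replicate number as a block, 0 of 24 members passed against 12 of all rows (0.0911%). At an unadjusted p under 0.05, 1 member was higher in Lhx4 null retinas, Col1a2, beside 4.09% of all rows, and 0 were lower, beside 2.72%. With the block these counts were 2 higher, Col1a2 and Nid1, beside 6.96% of all rows, and 0 lower, beside 5.21%. In 0 of 24 members did the libraries of the 2 genotypes not overlap, whereas this was so for 13.4% of all tested rows.

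The differences were small for most members and centred on 0. Of the 24 tested members 13 had a higher and 11 a lower mean log2 level in Lhx4 null retinas, with a median log2 difference of 0.03 beside 0.00 over all tested rows. The median was 0.04 in the 14 tested basement membrane genes (9 higher, 5 lower) and -0.03 in the 8 tested fibrous genes (3 higher, 5 lower). The 95% interval of the log2 difference lay between -1 and 1 for 22 of 24 members, the exceptions being Col1a2 and Nid1. The constant added to FPKM makes a doubling or a halving of a low member smaller in size than 1 on this scale. These bounds therefore do not exclude a doubling or a halving of FPKM in every one of those 22. The interval included 0 for 23 of 24. The median coefficient of variation over the 6 libraries was 20.5% in the tested members, against 13.0% over all tested rows.

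**Figure D2:**
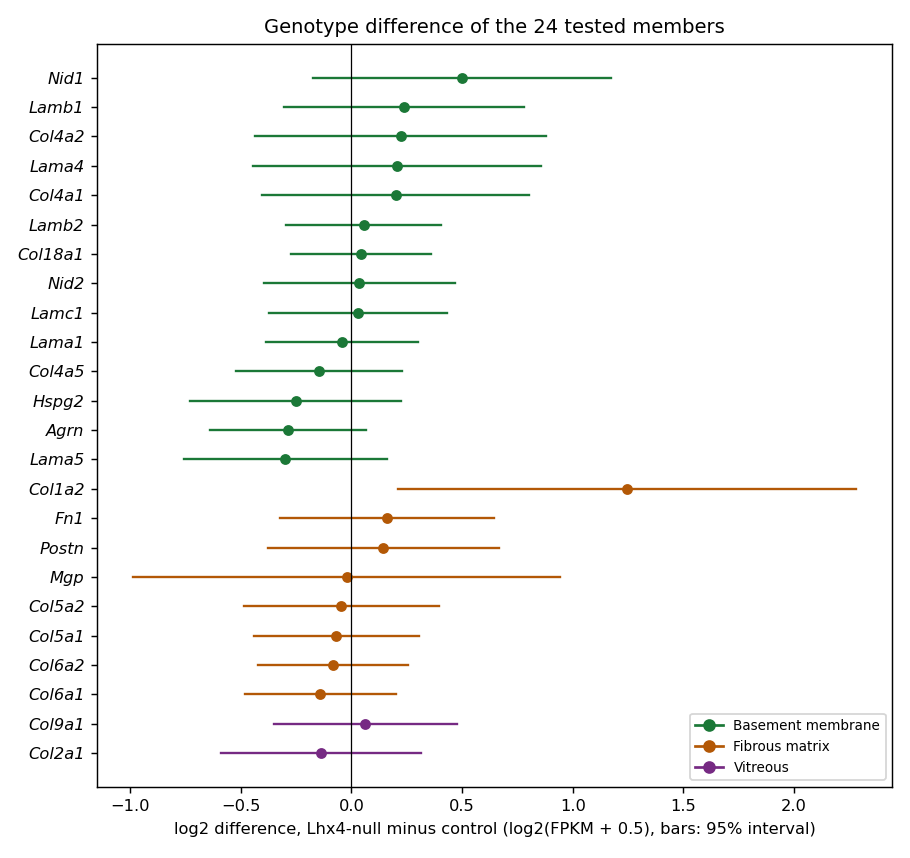
Log2 difference of each of the 24 tested members, Lhx4 null minus control, on the log2(FPKM + 0.5) scale with its 95% interval as a bar, colored by set. Every interval except that of Col1a2 (0.21 to 2.28) includes 0.

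Among the basement membrane genes, the major type IV collagen chains differed between genotypes by less than the spread between replicates. Col4a1, a chain of the major type IV collagen network, had 8.23, 8.00 and 6.33 FPKM in Lhx4 null retinas, against 9.32, 6.75 and 4.19 FPKM in control retinas. Its partner Col4a2 had 5.76, 5.47 and 3.92 FPKM in Lhx4 null retinas, against 5.83, 4.90 and 2.54 FPKM in control retinas. In both genes the genotypes overlapped, and the level was lowest in replicate 3 of each. Their log2 differences were 0.20 (SE 0.26, adjusted p = 0.885) for Col4a1 and 0.22 (SE 0.28, adjusted p = 0.883) for Col4a2 in the limma fit. Without both libraries numbered 3 these were 0.03 (adjusted p = 0.960) for Col4a1 and 0.06 (adjusted p = 0.882) for Col4a2.

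The chains of this collagen kept a narrow proportion. The FPKM ratio of Col4a1 to Col4a2 was 1.43, 1.46 and 1.62 in Lhx4 null retinas, against 1.60, 1.38 and 1.65 in control retinas. Over the same 6 libraries Col4a1 itself spanned a 2.22-fold range and Col4a2 a 2.30-fold range. Col4a5, a chain of the alternative type IV network, lay between 2.15 and 2.26 FPKM in Lhx4 null retinas and between 2.17 and 3.16 FPKM in control retinas, with a log2 difference of -0.15 (adjusted p = 0.863 in limma). Col4a3 and Col4a4, its partners in the mature glomerular network, had means under the 0.5 FPKM minimum and were not tested.

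Nid1, which encodes the linker nidogen-1, had the largest difference in the basement membrane set. It had 2.47, 2.49 and 1.37 FPKM in Lhx4 null retinas, against 1.81, 1.54 and 0.745 FPKM in control retinas. The Lhx4 null library was the higher in 3 of 3 same-numbered pairs, but the groups overlapped because replicate 3 was the lowest of each genotype. Of the 24 tested members, 3 were higher and 1 lower in 3 of 3 pairs, and the pairing was taken from the data alone. The log2 difference of Nid1 was 0.50 (SE 0.29, 95% interval -0.17 to 1.17), with an adjusted p of 0.761 in limma and 0.312 with the replicate block. Without control replicate 3 the log2 difference of Nid1 was 0.23. Nid2, which encodes the related nidogen-2, was between 0.439 and 0.655 FPKM in Lhx4 null retinas and between 0.428 and 0.612 FPKM in control retinas, with a log2 difference of 0.04 (adjusted p = 0.985). The Nid1 to Nid2 ratio therefore ran over a wider range than that of the collagen IV chains, from 1.74 to 5.67 over the 6 libraries.

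**Figure D3:**
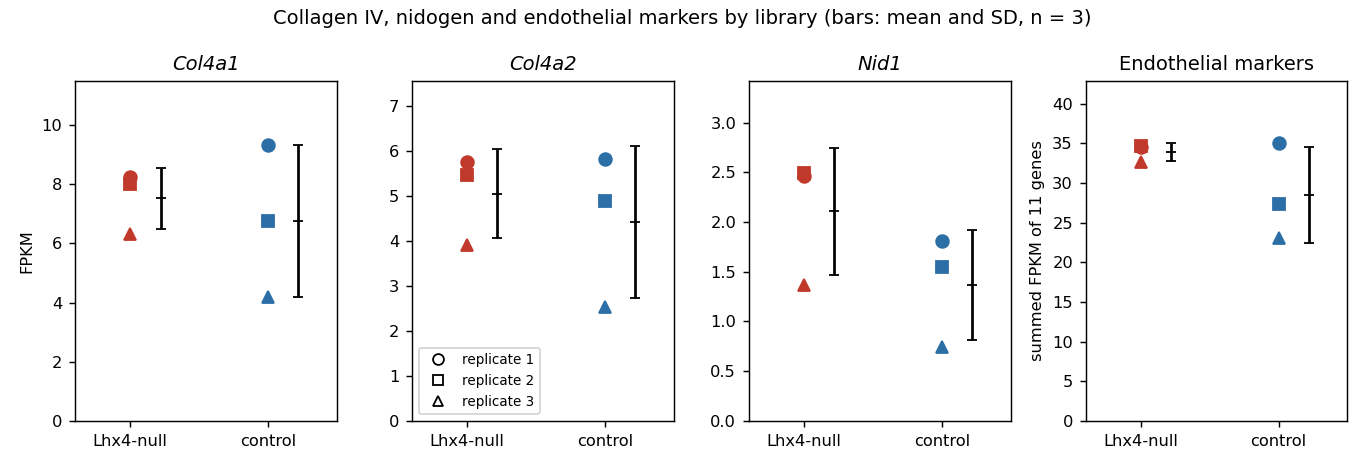
FPKM of Col4a1, Col4a2 and Nid1, and the summed FPKM of 11 endothelial markers without Kdr, by library on axes that start at 0. Red is Lhx4 null and blue is control, shapes give the replicate number, and black bars are the mean and SD of 3 libraries. In each panel the control replicate 3 is the lowest library, and the Lhx4 null replicate 3 is the lowest of its genotype.

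The summed markers of vessel cells, like Col4a1, Col4a2 and Nid1, were lowest in replicate 3 of each genotype, whereas Col4a5 was highest in control replicate 3. Single markers varied. Of 11 tested endothelial markers 7 were lower and 1 higher in replicate 3 of both genotypes than in the mean of replicates 1 and 2. Among all 13175 tested rows 4644 were lower and 4732 higher in this way. Kdr was left out of the endothelial sum after the values were seen, because retinal neurons and progenitors also express it. With Kdr the 12 genes summed to 91.4, 85.5 and 78.2 FPKM in Lhx4 null retinas, against 75.2, 66.2 and 65.4 FPKM in control retinas. Every Lhx4 null library lay above every control library in that sum. Without Kdr the other 11 summed to 34.6, 34.6 and 32.6 FPKM in Lhx4 null retinas, against 35.0, 27.4 and 23.1 FPKM in control retinas, and the genotypes overlapped. All 11 stood above 0, and 10 pericyte and smooth muscle markers summed to 17.0, 17.5 and 12.1 FPKM in Lhx4 null retinas, against 17.0, 14.0 and 6.97 FPKM in control retinas. Of 12 endothelial markers with Kdr, 11 were tested and 11 had a higher mean log2 level in Lhx4 null retinas, with a median of 0.31, 0 at an adjusted p under 0.05 and 2 at an unadjusted p under 0.05. Of all tested rows 4.09% were higher at this unadjusted p. Other marker lists also moved one way, with 5 of 5 tested microglia and macrophage markers (median 0.34) and 4 of 4 astrocyte markers (median 0.27) higher in Lhx4 null retinas, 6 of 6 rod markers lower (median -0.23), and 0 of these called. The part of vessel cell content in the levels of Col4a1, Col4a2 and Nid1 was not tested.

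Laminin genes gave the same picture of small differences. Lamc1, the gamma chain of most laminins, had 6.52, 8.95 and 5.94 FPKM in Lhx4 null retinas, against 6.80, 6.02 and 7.92 FPKM in control retinas. The groups overlapped and the log2 difference was 0.03 (SE 0.17, adjusted p = 0.988 in limma). Lamb1, a beta chain of early laminins, had 3.16, 4.18 and 2.02 FPKM in Lhx4 null retinas, against 2.90, 2.33 and 2.24 FPKM in control retinas, with a log2 difference of 0.24 (SE 0.23, adjusted p = 0.846) that was 0.03 without Lhx4 null replicate 2 and 0.48 without Lhx4 null replicate 3. Lamb2, the beta chain of synaptic and mature retinal laminins, spanned 4.28 to 4.78 FPKM in Lhx4 null retinas and 3.49 to 4.93 FPKM in control retinas, with a log2 difference of 0.06 (adjusted p = 0.961).

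Of the alpha chains, 3 passed the filter on low values. Lama1, the alpha chain of the embryonic laminin that the retinal inner limiting membrane requires, was between 2.74 and 2.96 FPKM in Lhx4 null retinas and between 2.52 and 3.52 FPKM in control retinas (log2 difference -0.04, adjusted p = 0.970). Lama4, the alpha chain typical of vessels, was between 1.15 and 1.43 FPKM in Lhx4 null retinas and between 0.718 and 1.94 FPKM in control retinas (log2 difference 0.21, adjusted p = 0.892). Lama5 was lower in the Lhx4 null library in 3 of 3 pairs, at 0.932, 1.57 and 0.952 FPKM in Lhx4 null retinas, against 1.31, 1.72 and 1.49 FPKM in control retinas. Its groups overlapped, and the log2 difference of -0.30 did not pass the test (SE 0.20, adjusted p = 0.781, with the block 0.462). Lama3, an alpha chain of epithelial laminins, was just under the 0.5 FPKM minimum, with 0.530, 0.419 and 0.367 FPKM in Lhx4 null retinas, against 0.602, 0.544 and 0.516 FPKM in control retinas, and was also lower in 3 of 3 pairs. Without the filter its log2 difference was -0.17 (adjusted p = 0.794). Lama2 and Lamc3 were under 0.5 FPKM in every library.

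Summed over chains, laminin transcripts held a near equal proportion of beta to gamma. The FPKM ratio of beta to gamma chains was 1.08, 0.970 and 1.06 in Lhx4 null retinas, against 1.10, 0.910 and 0.845 in control retinas. That of alpha to gamma chains was lower, from 0.650 to 0.892 in Lhx4 null retinas and from 0.766 to 0.953 in control retinas. Lama1 made up a ratio of 0.456 to 0.501 of all alpha chain FPKM in Lhx4 null retinas and 0.412 to 0.551 in control retinas. The genotypes overlapped in all of these ratios.

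Agrin had the highest level of the basement membrane set, and perlecan and collagen XVIII, the other proteoglycans, stood far below it. Agrn, which encodes agrin, had 68.0, 84.5 and 62.4 FPKM in Lhx4 null retinas, against 102, 76.1 and 83.8 FPKM in control retinas. Lhx4 null replicate 2 exceeded 2 of the 3 control libraries, and the log2 difference was -0.29 (SE 0.15, 95% interval -0.64 to 0.06, adjusted p = 0.749 in limma). Hspg2, which encodes perlecan, was between 1.61 and 1.89 FPKM in Lhx4 null retinas and between 1.55 and 2.90 FPKM in control retinas, with a log2 difference of -0.25 (adjusted p = 0.824). Col18a1, whose C-terminal fragment is endostatin and whose loss in humans leads to vitreoretinal degeneration, had 5.40, 5.17 and 6.59 FPKM in Lhx4 null retinas, against 5.24, 5.11 and 6.22 FPKM in control retinas. Its Lhx4 null library was higher in 3 of 3 pairs by a log2 difference of 0.04 (SE 0.14, adjusted p = 0.966), far less than the spread between replicates. Col18a1 overlaps Slc19a1 on the opposite strand by 8825 bases, and Slc19a1 stood at 18.6 to 22.7 FPKM, so without knowledge of strand use their fragments may be shared.

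The fibrous set divided into widely expressed matrix genes and fibroblast genes. Fn1, which encodes fibronectin, had 15.8, 21.8 and 15.9 FPKM in Lhx4 null retinas, against 16.2, 11.8 and 20.2 FPKM in control retinas, with a log2 difference of 0.16 (SE 0.21, adjusted p = 0.884 in limma). Col6a1, a chain of the microfibrillar type VI collagen, had 11.9, 12.7 and 12.6 FPKM in Lhx4 null retinas, against 13.6, 11.2 and 16.8 FPKM in control retinas. Its partner Col6a2 had 1.92, 2.07 and 1.65 FPKM in Lhx4 null retinas, against 2.25, 1.85 and 1.96 FPKM in control retinas. The log2 differences were -0.14 (adjusted p = 0.855) for Col6a1 and -0.08 (adjusted p = 0.927) for Col6a2, and the groups of both genes overlapped. The ratio of Col6a1 to Col6a2 lay between 6.13 and 7.63 in Lhx4 null retinas and between 6.05 and 8.60 in control retinas, above the 1.38 to 1.65 of Col4a1 to Col4a2.

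Mgp, which encodes the calcification inhibitor matrix Gla protein, varied most after Col1a2. It had 2.14, 2.62 and 2.98 FPKM in Lhx4 null retinas, against 5.32, 2.64 and 1.14 FPKM in control retinas. Control replicate 1 lay above and control replicate 3 below all Lhx4 null libraries, and control replicate 2 lay among them. The log2 difference of -0.02 (SE 0.41) came with a 95% interval from -0.99 to 0.94. Postn, which encodes periostin, lay between 0.574 and 0.863 FPKM in Lhx4 null retinas and between 0.393 and 0.861 FPKM in control retinas, with a log2 difference of 0.15 (adjusted p = 0.905). The small leucine-rich proteoglycans Dcn and Lum, markers of fibroblasts and corneal stroma, were at most 0.279 FPKM, and Lum was listed at 0 in 5 of 6 libraries.

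Col1a2 was the member that stood out by the size of its difference. It encodes the second chain of type I collagen, and had 2.80, 2.33 and 0.593 FPKM in Lhx4 null retinas, against 0.822, 0.342 and 0.189 FPKM in control retinas. Lhx4 null replicates 1 and 2 lay above all control libraries, but Lhx4 null replicate 3 lay below control replicate 1, so the groups overlapped. The means were 1.91 ± 1.16 FPKM in Lhx4 null retinas and 0.451 ± 0.331 FPKM in control retinas (SD, n = 3 each). On the log2(FPKM + 0.5) scale, which understates the change of a gene this low, the difference was 1.25 (SE 0.44, 95% interval 0.21 to 2.28). The unadjusted p was 0.0244 in limma, and after Benjamini-Hochberg adjustment over all tested rows it was 0.689.

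Every same-numbered pair had the higher Col1a2 value in the Lhx4 null library, by 1.32, 1.75 and 0.67 on the log2 scale in pairs 1, 2 and 3. With the replicate block the unadjusted p was 5.56e-04 and the adjusted p 0.143. Without both libraries numbered 3 the log2 difference was 1.54 (adjusted p = 0.132, and 0.0549 with the block added). Over all 15 alternatives the adjusted p ran from 0.0549 to 1.00, so no fit called the gene. Col1a2 alone of the members met the size and unadjusted p thresholds that the study applied to its own test, a fold over 2 and p under 0.05.

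**Figure D4:**
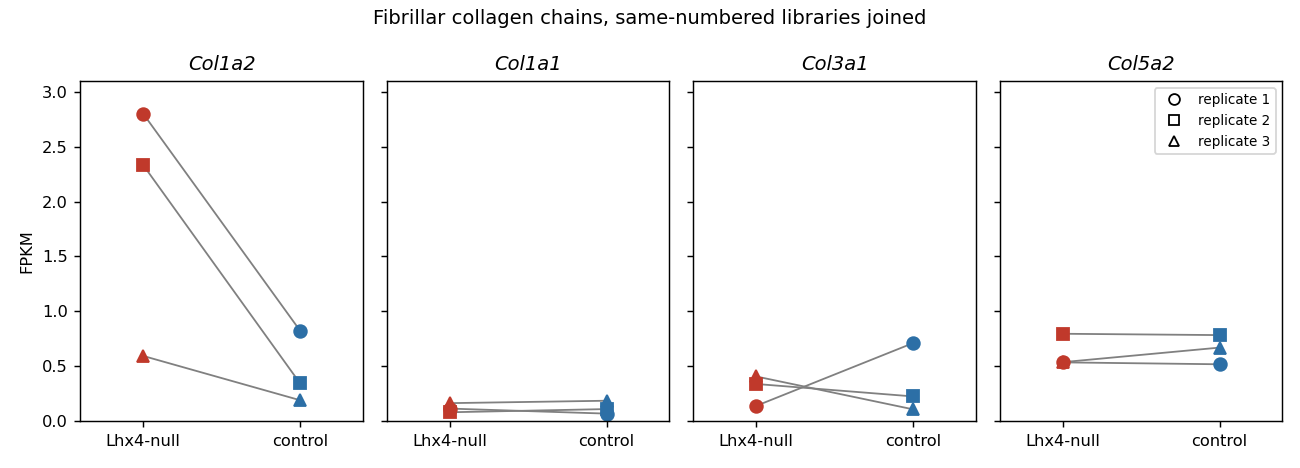
FPKM of Col1a2 and of 3 other fibrillar collagen chains in each library on a common axis that starts at 0, with Lhx4 null libraries in red on the left, control libraries in blue on the right and same-numbered libraries joined. All 3 Col1a2 lines are higher on the Lhx4 null side, whereas the Col1a1, Col3a1 and Col5a2 values stay under 1 FPKM.

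Other fibrillar chains, named here for their kinship with Col1a2 after their values were seen, did not share this pattern. Col1a1 encodes the chain that type I collagen contains in excess over the Col1a2 product. It had 0.112, 0.079 and 0.162 FPKM in Lhx4 null retinas, against 0.067, 0.108 and 0.184 FPKM in control retinas, and was under the minimum for testing. The FPKM ratio of Col1a2 to Col1a1 was thus 24.9, 29.6 and 3.66 in Lhx4 null retinas, against 12.4, 3.17 and 1.02 in control retinas, with every library above 1. Col3a1, which encodes the collagen of vessel walls and loose connective tissue, had 0.137, 0.337 and 0.406 FPKM in Lhx4 null retinas, against 0.710, 0.223 and 0.105 FPKM in control retinas. Col5a1 and Col5a2, chains of the type V collagen that nucleates fibrils, had log2 differences of -0.07 (adjusted p = 0.953) and -0.05 (adjusted p = 0.980).

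Markers of ocular mesenchyme and fibroblasts were near 0, and their sum overlapped between the genotypes. Foxd1 is also made by the neural retina, and the 10 other genes of this list in the table summed to 0.829, 0.978 and 0.953 FPKM in Lhx4 null retinas, against 1.17, 0.988 and 0.322 FPKM in control retinas. No single value exceeded 0.476 FPKM, and Osr1 was listed at 0 in every library. In Prrx1 and Tbx18, both too low to be tested, every Lhx4 null library lay above every control library. Among all tested rows the genotypes did not overlap in 13.4%. Prrx1 had 0.138, 0.148 and 0.257 FPKM in Lhx4 null retinas, against 0.0957, 0.119 and 0.0657 FPKM in control retinas. For Tbx18 the lowest Lhx4 null value was 0.00986 FPKM and the highest control value 0.00961 FPKM. Tbx15 and Dpt, also untested, went the other way. Tbx15 had 0.0564, 0.243 and 0.0546 FPKM in Lhx4 null retinas, against 0.345, 0.476 and 0.0619 FPKM in control retinas. Dpt was listed at 0 in every Lhx4 null library and in control replicate 3. The part of mesenchymal cells in the Col1a2 level was not tested. Casd1, a gene beside Col1a2 on chromosome 6, had 35.7, 27.0 and 37.7 FPKM in Lhx4 null retinas, against 23.2, 26.2 and 29.9 FPKM in control retinas. Sgce, the neighbour on the other side of Casd1, stood at 13.8 to 16.0 FPKM in Lhx4 null retinas and 13.0 to 17.0 FPKM in control retinas, so neither neighbour had the Col1a2 order of libraries. Gm43921, an unclassified GENCODE gene on the same strand, overlaps Col1a2 by 1792 bases and had no row of its own, so its fragments and those of Col1a2 cannot be told apart.

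The vitreous collagens were among the most abundant members. Col2a1, which encodes the fibril-forming type II collagen, had 53.3, 60.6 and 73.8 FPKM in Lhx4 null retinas, against 61.2, 57.5 and 90.6 FPKM in control retinas. Col9a1, which encodes a chain of the type IX collagen that decorates those fibrils, had 16.6, 17.9 and 19.1 FPKM in Lhx4 null retinas, against 16.4, 13.5 and 22.5 FPKM in control retinas. Both genes were highest in replicate 3 of each genotype, and the genotypes overlapped. The log2 differences were -0.14 (SE 0.19, adjusted p = 0.898 in limma) for Col2a1 and 0.06 (SE 0.18, adjusted p = 0.963) for Col9a1. The ratio of Col2a1 to Col9a1 was 3.20 to 3.86 in Lhx4 null retinas and 3.73 to 4.26 in control retinas. Markers of the lens, another source of matrix at the vitreous, summed to 2.30, 14.6 and 18.2 FPKM in Lhx4 null retinas, against 4.36, 2.25 and 4.60 FPKM in control retinas, and their part in the vitreous collagen levels was not tested.

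The libraries numbered 3 stood apart for some members in each direction. In 7 of 24 tested members both libraries numbered 3 lay outside the range of the other 4 libraries, beside 37.2% of all tested rows. Col4a1, Col4a2, Nid1 and Lamb1 were lower there, and Col18a1, Col2a1 and Col9a1 were higher. The log2 level of replicate 3 minus the mean of replicates 1 and 2 was -0.47 in Lhx4 null and -0.94 in control retinas for Col4a2, and -0.67 in Lhx4 null and -0.80 in control retinas for Nid1. For Col2a1 it was 0.38 in Lhx4 null and 0.61 in control retinas, and for Col18a1 0.29 in Lhx4 null and 0.25 in control retinas. Col1a2 was also lower in both, at -1.49 in Lhx4 null and -0.62 in control retinas, whereas Mgp differed in sign, with 0.28 in Lhx4 null and -1.39 in control retinas. Without both libraries numbered 3 the log2 difference between genotypes was 0.46 (adjusted p = 0.377 in limma) for Nid1, 0.42 (0.440) for Lamb1, 0.03 (0.948) for Col18a1, -0.06 (0.839) for Col2a1 and 0.21 (0.537) for Col9a1. Mgp moved to -0.57 (0.482), Fn1 to 0.41 (0.459) and Lamc1 to 0.24 (0.609), and none of these members passed the test in that fit. Over all 24 members, 5 were higher and 10 lower in replicate 3 of both genotypes. Of all 13175 tested rows, 4732 were higher and 4644 lower in this way.

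**Figure D5:**
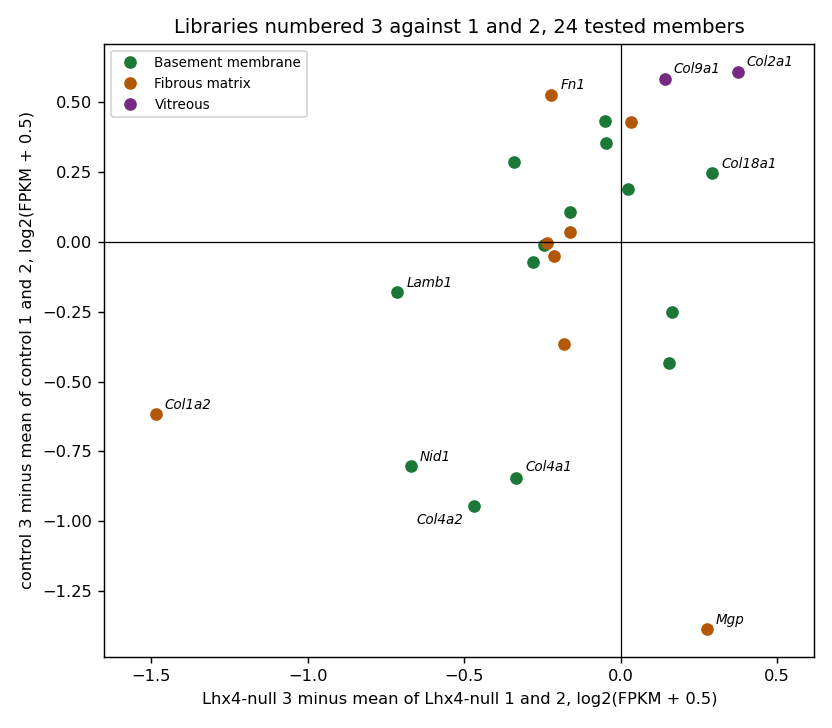
Log2 level of replicate 3 minus the mean of replicates 1 and 2, in Lhx4 null retinas on the x axis and in control retinas on the y axis, for the 24 tested members colored by set. Col4a1, Col4a2, Nid1, Lamb1 and Col1a2 lie at the lower left, and Col2a1, Col9a1 and Col18a1 at the upper right.

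Genes that work with these members did not pass the test either. Of 10 tested other basement membrane genes 7 had a higher and 3 a lower mean log2 level in Lhx4 null retinas, with a median of 0.09, and 0 were called. Among 10 tested receptors for basement membranes 7 were higher and 3 lower with a median of 0.16 and 0 called. Dag1, which encodes the laminin and agrin receptor dystroglycan, had 23.6, 19.9 and 21.7 FPKM in Lhx4 null retinas, against 17.2, 17.2 and 16.6 FPKM in control retinas. The groups did not overlap, yet the log2 difference of 0.34 (SE 0.09) had an adjusted p of 0.661 in limma. In Bcam of this list every Lhx4 null library also lay above every control library (log2 difference 0.24, adjusted p = 0.749). Sdc4 went the other way, with every Lhx4 null library below every control library (log2 difference -0.15, adjusted p = 0.771). Such a separation occurred in 13.4% of all tested rows. Among 15 tested enzymes and chaperones of collagen synthesis and cross-linking, 5 were higher and 10 lower, with a median of -0.02 and 0 called.

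The wider fibrous and vitreous lists were mixed. Of 14 tested other fibrous matrix genes 9 were higher and 5 lower with a median of 0.13 and 0 called, and of 5 tested other vitreous and cartilage genes 1 was higher and 4 lower with a median of -0.05 and 0 called. Col5a3, the remaining type V collagen chain, had 1.37, 1.66 and 0.941 FPKM in Lhx4 null retinas, against 2.52, 1.85 and 2.24 FPKM in control retinas, with a log2 difference of -0.58 (SE 0.20, adjusted p = 0.688 in limma). Col9a2, a partner chain of Col9a1, had 4.90, 6.57 and 5.73 FPKM in Lhx4 null retinas, against 7.71, 6.91 and 8.03 FPKM in control retinas, with a log2 difference of -0.37 (SE 0.13, adjusted p = 0.689). In both genes every Lhx4 null library lay below every control library, whereas in Fbn1 (log2 difference 0.13, adjusted p = 0.882) and Fbln2 (0.34, adjusted p = 0.747) of the fibrous list every one lay above. Genotypes did not overlap in 13.4% of all tested rows.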

How the data were processed

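RNA was extracted from the retinas of 3 Lhx4 null and 3 control mice at P6, and paired-end TruSeq libraries were sequenced. Per the submitters' processing notes, reads were mapped with TopHat2 and quantified with Cufflinks on GRCm38, and the authors deposited the values as FPKM per gene. The sources used here give no tool versions, no annotation and no use of strand. Cufflinks divides fragments among overlapping transcripts, so overlapping genes are uncertain. FPKM keeps no read numbers, so depth behind a value is unknown and precision rests on the 3 animals per genotype. Of 21995 rows, 168 shared 76 repeated names and 27 held a spreadsheet date in place of a name.

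Rows averaging 0.5 FPKM or more were tested with limma 3.58.1 in R 4.3.3 (trend fit, genotype alone, two-sided) on log2(FPKM + 0.5), with Benjamini-Hochberg adjustment over all 13175 rows and a threshold of 0.05. The fit was also run on simulated data with noise independent between libraries. The shared shift of the libraries numbered 3 was not simulated, so that run does not show how readily members would be called here. Deviations of same-numbered libraries correlated at 0.39, 0.26 and 0.67 for pairs 1, 2 and 3 over these rows, all above 0.1, so the numbers were taken as pairs on the data alone. Lhx4 null replicate 2 also correlated at 0.38 with control replicate 1, and Lhx4 null replicate 1 at 0.27 with control replicate 2. These values set pair 3 apart but do not separate pairs 1 and 2 from the swapped pairing. Alternatives were a pseudocount of 0.1 or 1, no filter, a minimum of 2 FPKM, scaling to the 75th percentile, quantile normalization, no trend, a replicate block, and leaving out libraries. Positions are from GENCODE M21 and promoter windows from RefSeq (GRCm38.p6).

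Per-library values are given for members at an unadjusted p under 0.05, the most abundant members of each set, members apart in both libraries numbered 3, and Col1a2, which the study names. Others are given by range, except for Lama3, Lama5, Col1a1, Col3a1 and the neighbour Casd1, which were chosen after their values were seen. Of the other lists, Prrx1, Tbx18, Tbx15, Dpt, Fbn1, Fbln2, Bcam and Sdc4 were also named with their values known. Leaving Kdr and Foxd1 out of their marker sums was also decided after the values were seen. The 33 members and the 22 lists (215 genes, of which 214 had a row) were chosen with earlier results of these data known.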

Additional observations from a re-analysis of the deposited data

How the results depend on the processing

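No member was called under any of the 16 alternatives in limma. Over all tested rows, 12 were called with the replicate block, 11 without both libraries numbered 3 and 20 with the block and without these libraries, the last alternative being chosen after seeing the data. Leaving out 1 library at a time gave 0 to 5 called rows, and the 0 came without Lhx4 null replicate 2, where 825 rows had an unadjusted p under 0.05. The number of members at an unadjusted p under 0.05 was 2 with the block, 2 without both libraries numbered 3, 2 with the block and without them, 0 with a minimum of 2 FPKM, which removes Col1a2, and 0 to 3 leaving out 1 library at a time. It was 0 without Lhx4 null replicate 1 and without control replicate 3, 2 without Lhx4 null replicate 2 or control replicate 1, and 3 without Lhx4 null replicate 3. The share of all tested rows at that p was 3.27% without Lhx4 null replicate 1, 8.75% without control replicate 3, 6.26% without Lhx4 null replicate 2, 5.26% without control replicate 1, 7.05% without Lhx4 null replicate 3 and 6.81% with all libraries. This share was 12.2% with the block, 11.6% without both libraries numbered 3, 8.19% with the block and without them, and 6.92% with a minimum of 2 FPKM.

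Of 221 values of the 14 members that the naming rule selected, 207 kept their direction and 14 reversed, in 9 members, and none of these had been called. Lamc1 reversed to -0.0116 with quantile normalization and Mgp to 0.0091 with a pseudocount of 0.1. Leaving out 1 library at a time, log2 differences ranged from -0.0813 to 0.45 for Col4a1, -0.0919 to 0.44 for Col4a2, -0.13 to 0.14 for Lamc1, -0.0541 to 0.13 for Col18a1, -0.28 to 0.0024 for Col6a1, -0.0345 to 0.34 for Fn1, -0.48 to 0.43 for Mgp, -0.26 to 0.0643 for Col2a1 and -0.10 to 0.26 for Col9a1. The cause was not tested. Nid1 ranged from 0.23 to 0.72 and Lamb1 from 0.03 to 0.48. Col1a2 ranged from 0.94 to 1.74 and was 1.79 with a pseudocount of 0.1 and 0.93 with 1. The replicate block changed no call of a member, and the scalings moved the median of all rows by less than 0.1.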

Other observations

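Few genes met a search built on the steps between libraries seen for Col1a2. A search chosen after its values were seen asked for a log2 level above control by more than 0.5 in all 3 same-numbered pairs, together with a level in replicate 3 more than 0.5 below that of replicates 1 and 2 in both genotypes. Of 13175 tested rows 8 met it, namely Apcdd1, Atp8a2, Col1a2, Ece1, Fam135b, Ndnf, Trnp1 and Vsx1. The smallest steps of Col1a2 itself were 0.67 between the genotypes in pair 3 and -0.62 for control replicate 3. The 0.5 cutoff lies just below these, and the count depends on it. The full order of libraries was not asked for. In Ece1, Vsx1 and Atp8a2, unlike Col1a2, control replicate 2 lay above Lhx4 null replicate 3. None of the 8 is a fibrillar collagen other than Col1a2.

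Ece1, which encodes the endothelin-converting enzyme, had 743.7, 502.1 and 176.6 FPKM in Lhx4 null retinas, against 309.5, 185.0 and 31.5 FPKM in control retinas, with a log2 difference of 1.72 (adjusted p = 0.749 in limma, 0.0392 with the replicate block). Vsx1, a homeobox gene of bipolar cells, had 18.2, 18.1 and 3.70 FPKM in Lhx4 null retinas, against 11.2, 5.62 and 0.541 FPKM in control retinas, with a log2 difference of 1.43 (adjusted p = 0.777, 0.10 with the block). Ndnf, which encodes a secreted neuron-derived factor, had 16.3, 20.2 and 5.21 FPKM in Lhx4 null retinas, against 8.22, 5.18 and 2.62 FPKM in control retinas, with a log2 difference of 1.23 (adjusted p = 0.725, 0.0992 with the block). Control replicate 1 lay above Lhx4 null replicate 3 in Ece1, Vsx1 and Ndnf, as it did in Col1a2, and also in Fam135b and Trnp1. In Apcdd1 and Atp8a2 it lay below, at 7.82 and 12.3 FPKM, against 8.70 and 12.9 FPKM in Lhx4 null replicate 3. The search fixes the steps that these genes share, so the likeness carries no test, and nothing on shared control follows from it.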
